A study of Homo sapiens with 7 samples.

Results

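The sites described here are downstream antisense transcription start sites (daTSSs) that lie in the 125-nt window beginning just past 200 nt downstream of their gene TSS, in human T-47D cells. They were chosen by distance alone, read on the strand of the gene, and number 455 of 2956 called daTSSs. Every daTSS belongs to a single called gene TSS, so the same 455 sites are also 4.38% of all 10391 gene TSSs. The calls come from 1 Start-seq library (replicate 1), in which short capped nuclear RNA is sequenced from its 5' end so that initiation is placed at a single nucleotide. Transcript levels are FPKM values (fragments scaled by transcript length and library size) from RNA-seq of poly-A enriched libraries. The authors give them as 1 column merged from 3 replicates. All cells were T47D/A1-2, a derivative of the luminal breast cancer line T-47D that overexpresses rat glucocorticoid receptor and carries an integrated MMTV luciferase reporter, grown in 10% serum and moved to 5% charcoal-stripped serum for 24 hours or more before harvest. A single derivative line in a single condition was measured, without hormone treatment as a variable, so no condition is compared below and no value has an error between replicates. The intervals given are 95% intervals (exact Clopper-Pearson for shares, order-statistic for medians, Newcombe for differences of shares) and cover the counting of sites in that library only. Gene TSSs are not replicates of one another, and the files used here give no read count for a single call.

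Mammalian promoters often start RNA polymerase II in both directions. An upstream antisense TSS (uaTSS) produces RNA that runs away from the gene, the arrangement called divergent transcription. A daTSS lies inside the gene on the opposite strand and its RNA runs back toward the gene TSS, the arrangement called convergent transcription. Such antisense RNAs are usually short-lived, which is why a nascent-RNA assay is used to see them.

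The cells had the marker pattern of luminal epithelium. KRT8, KRT18 and KRT19, the keratins of simple epithelia, were at 1142, 555 and 936 FPKM, and the luminal regulators GATA3, FOXA1, ESR1 and PGR at 360, 113, 44.1 and 68.5 FPKM. The basal keratins KRT5 and KRT14, the mesenchymal regulator ZEB1 and the T cell gene CD3E were listed at 0 FPKM.

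The 9 sequences below show what polymerase met at these sites, in intron and in exon and with and without an initiator-like sequence. They are the antisense strand in hg19, 5' to 3', from members with highly expressed genes. Capitals mark bases -1 to +3 at sites with an initiator-like CANW (N any base, W A or T, with the A at the called base +1), and bases -1 and +1 elsewhere. Sites in or next to an exon are shown over 30 nt and the others over 101 nt. In 4 intronic members the called base was the A of a CANW, and these lay at chr1:160175534-160175563 (minus strand) in PEA15, a death effector domain phosphoprotein, at chr12:50418808-50418908 (plus strand) in RACGAP1, a regulator of cytokinesis, at chr12:49961668-49961768 (plus strand) in MCRS1, a microspherule protein, and at chr1:201139598-201139698 (plus strand) in TMEM9, a lysosomal membrane protein whose gene TSS was called 815 nt downstream of the nearest annotated start.
PEA15: cccggtccgactccCAAActgccgttcagc
RACGAP1: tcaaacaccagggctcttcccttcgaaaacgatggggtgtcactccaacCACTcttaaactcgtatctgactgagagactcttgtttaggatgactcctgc
MCRS1: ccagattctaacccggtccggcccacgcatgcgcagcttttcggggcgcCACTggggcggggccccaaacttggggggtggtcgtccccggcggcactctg
TMEM9: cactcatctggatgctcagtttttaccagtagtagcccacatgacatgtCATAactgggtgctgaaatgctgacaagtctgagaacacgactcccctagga

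In 2 intronic members the called base was not preceded by the pyrimidine-purine step at which most polymerase II start sites lie. They are S100A6, a calcium-binding protein, at chr1:153508213-153508242 (plus strand), and PPDPF, a pancreatic progenitor differentiation factor, at chr20:62152374-62152474 (minus strand).
S100A6: tccgcaccccaaaaGAgcacaccccattgc
PPDPF: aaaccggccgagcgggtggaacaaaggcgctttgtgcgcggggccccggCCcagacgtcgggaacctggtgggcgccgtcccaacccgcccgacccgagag

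In 3 members of high expression the daTSS lay in an annotated exon. It fell in a noncoding exon of RPL36, a protein of the large ribosomal subunit, at chr19:5690609-5690638 (minus strand). In ERGIC3, which acts in transport between endoplasmic reticulum and Golgi, it fell in sequence that is coding in at least 1 transcript, at chr20:34130108-34130137 (minus strand). In DAZAP2, a small proline-rich protein, it fell in an exon used by some transcripts, at chr12:51632893-51632922 (minus strand). Each of these 3 called bases was a purine after a pyrimidine.
RPL36: caacctccgcgcggCAcccgcactcacccc
ERGIC3: tggtgaggtaatacTGcagctcggacagga
DAZAP2: tgcgccacagagttTAcggaggaaagggcc

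The members occupied 455 distinct genes and 455 distinct positions, 454 of them at protein-coding genes, and were found on 23 chromosomes. Their median distance from the gene TSS was 254 nt (248 to 259), with quartiles of 225 and 288 nt. Of the 125 possible distances, 119 were used, and no distance had more than 13 daTSSs (210 nt). Counts per 25 nt fell across the window, from 117 in the 25 nt nearest the gene TSS to 98, 90, 85 and 65 in the next bins. Since distance chose the members, this shape is a description of the window. Members and non-members touch at both ends. ICAM1, an adhesion receptor, was left out at 200 nt, whereas CLN6, a lysosomal storage disease gene, and DFFA, the inhibitor of the apoptotic nuclease, entered at the next nucleotide. RACGAP1 and SLC30A4, a zinc transporter, lay at the last position inside, and STK40, VPS26A and ZNF580 lay 1 nt beyond it. Below, the others are the remaining 2501 daTSSs, and the next class is the 757 daTSSs in the 200 nt that follow the window.

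**Figure D1:**
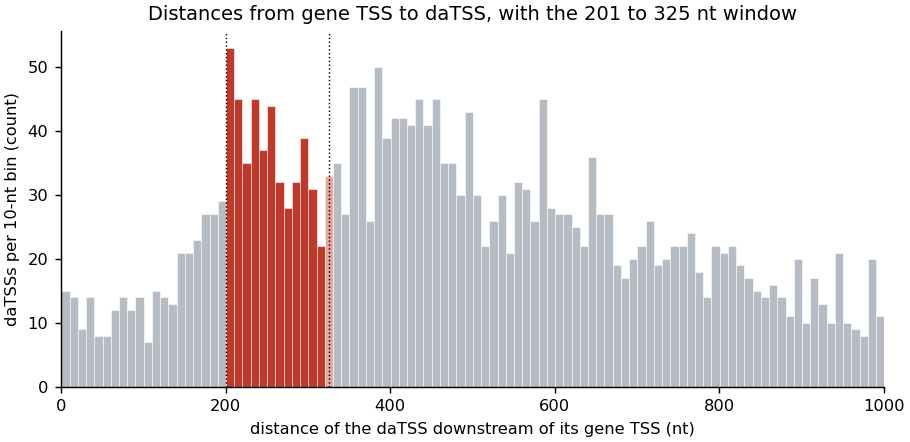
Number of daTSSs per 10-nt bin of distance downstream of the gene TSS (nt), up to 1000 nt, in Start-seq replicate 1. Bins inside the window are red, the bin that the upper limit crosses is pale, and the fullest bin of the window is its nearest to the gene TSS, with 53 daTSSs.

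The distance depends on which gene TSS is used. When it was measured from the nearest annotated transcript start in place of the called gene TSS, 69.2% of members stayed in the window. The called gene TSS lay within 100 nt of an annotated start for 78.0% of members, against 82.3% at the other daTSSs (difference -4.26 points, -8.55 to -0.38) and 87.3% in the next class. Another called gene TSS lay within 5000 nt of the gene TSS for 7.25% of members and 11.0% of the others. No member position was also called as the uaTSS of another gene TSS.

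Divergent calls were about as frequent at these gene TSSs as at the other gene TSSs with a daTSS. A uaTSS was called for 275 of the 455 members, 60.4% (55.8 to 64.96), beside a background of 53.1% at all gene TSSs and 61.6% at the 2501 gene TSSs with another daTSS. The difference from the latter was -1.14 points (-6.07 to 3.65). In the next class the share was 64.99% (difference -4.55 points, -10.2 to 1.04). The uaTSS of a member lay a median of 189 nt upstream of the gene TSS (173 to 205), compared with 206.5 nt (198 to 217) for the other daTSSs and 186.5 nt (175 to 198) in the next class. Both intervals overlap that of the members. Where both antisense sites were called, uaTSS and daTSS enclosed a median of 446 nt (433 to 466).

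Distances to the uaTSS spanned 5 to 997 nt. The shortest belonged to GINS3, a subunit of the replicative helicase, where the antisense sites lay 5 nt upstream and 210 nt downstream and so enclosed 215 nt. POLE4, a subunit of DNA polymerase epsilon, had a uaTSS 7 nt upstream. ETV7, an ETS family factor, had the longest distance, 997 nt, beside a daTSS 268 nt downstream. Within the window, uaTSS distance and daTSS distance had a Spearman correlation of -0.04 over 275 gene TSSs, given as a description because each pair is measured from the same gene TSS.

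Genes with a member were expressed over a wide range but at a lower median than genes with other daTSSs. Median FPKM was 15.8 (13.4 to 17.6, quartiles 5.49 and 36.1) for the 452 members with a value and 18.8 (17.7 to 20.1) for 2466 others. On the scale of log2(FPKM + 0.1), the medians differed by -0.26 (-0.51 to -0.07), and the member was the higher gene in 44.9% of all pairs. Against the next class, whose genes had a median of 20.1 FPKM, the difference was -0.35 (-0.61 to -0.16). Against daTSSs in the first 200 nt, with a median of 13.5 FPKM, it was 0.23 (-0.10 to 0.64). The 7298 gene TSSs without a daTSS had a median of 16.3 FPKM, and the difference from them was -0.05 (-0.29 to 0.12).

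The lower median was seen at gene TSSs that also had a uaTSS. There, members had a median of 16.2 FPKM (n = 274) and the other daTSSs 22.4 FPKM (n = 1525), a difference of -0.46 in log2 (-0.76 to -0.24). Without a uaTSS the medians were 13.97 FPKM (n = 178) and 12.8 FPKM (n = 941), a difference of 0.13 (-0.29 to 0.53). Put the other way, having a uaTSS went with a difference in median log2 FPKM of 0.81 (0.598 to 1.004) at the other daTSSs and of 0.21 (-0.25 to 0.65) at the members. The difference between these values was -0.59 (-1.09 to -0.11). Gene TSSs without a daTSS had medians of 18.6 FPKM with a uaTSS and 13.9 FPKM without one, from which the members differed by -0.20 (-0.47 to 0.02) and 0.01 (-0.38 to 0.40).

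The highest expressed members were RPL8, a large-subunit ribosomal protein, at 1135 FPKM, and RPL36 at 619 FPKM. Ribosomal protein genes have many near-identical pseudogenes, and how reads shared with them were counted is not given in the sources used here, so these values are uncertain. TAGLN2, an actin-binding protein, followed at 549 FPKM, then S100A6 at 401, PPDPF at 293, the 14-3-3 protein YWHAZ at 255, ERGIC3 at 245 and DAZAP2 at 238 FPKM. Of these 8 genes, RPL8, S100A6, PPDPF, ERGIC3 and DAZAP2 had a uaTSS, between 128 and 173 nt upstream. FPKM reached 100 for 6.64% of members and 9.69% of the others (difference -3.05 points, -5.36 to -0.16).

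At the low end, 4.20% of members had an FPKM under 1, compared with 3.33% of the others (difference 0.88 points, -0.81 to 3.23). The lowest values above 0 were those of ATOH7, a retinal transcription factor, at 0.0555 FPKM and IL1RAPL2, an interleukin receptor accessory-like protein, at 0.0575 FPKM. PDE4C, a cAMP phosphodiesterase, was at 0.0941, GGN, a germ cell protein, at 0.107 and CATSPERE, a subunit of the sperm calcium channel, at 0.115 FPKM. A gene TSS and a daTSS were thus called at genes whose mature RNA was close to absent from the merged poly-A enriched libraries. For IL1RAPL2 the gene TSS was called at an offset of -736 nt from the annotated start and the daTSS lay outside the gene model. Whether its calls belong to that gene was not tested. The 1 member listed at 0 FPKM was H3C11, a replication-dependent histone H3 gene, named because it is the only such value. Poly-A enriched libraries miss RNA without a poly-A tail, so this 0 does not show that the gene is silent. In the fullest 10 nt of the window, up to 210 nt, the most expressed genes were PTTG1 (securin) at 160 FPKM, CCT4, a subunit of the TCP1 chaperonin, at 116 FPKM and MCRS1 at 105 FPKM. Across the window, log2 FPKM and daTSS distance had a Spearman correlation of 0.01 over 452 genes, a description across genes of the same library.

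Of 16 gene lists, 12 held at least 1 member, and each count is read against the 4.38% of all gene TSSs with a daTSS in this window. Zinc finger genes of the ZNF series, many of them DNA-binding repressors, gave the largest count, 28 of 401 gene TSSs or 6.98%. Their median of 3.91 FPKM was near the 4.50 FPKM of all ZNF gene TSSs, 19 of the 28 daTSSs lay in introns, and 17 had a uaTSS. ZNF350 was at 39.7 FPKM, ZNF24 at 35.3, ZNF639 at 23.2 and ZNF92 at 9.73 FPKM.

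DNA replication genes had 5 of 38 gene TSSs in the window, 13.2% with an interval of 4.41 to 28.1%. These were the helicase subunit MCM3 at 95.2 FPKM, POLE4 at 42.7, the replication initiation factor MCM10 at 28.0, the polymerase delta catalytic subunit POLD1 at 16.2 and GINS3 at 8.35 FPKM. All but MCM3 had a uaTSS, between 5 and 379 nt upstream. The list of cell cycle control gave 5 of 41, a count that includes CDK9, the kinase of the elongation factor P-TEFb, at 41.9 FPKM. CDK9 acts in elongation, and its site is also counted among the elongation and pausing factors below. Cyclin D1 (CCND1) was at 24.5, E2F2 at 13.2, the pocket protein RBL1 at 11.5 and E2F6 at 5.71 FPKM. CCND1 and E2F2 had no uaTSS.

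Proteasome subunits gave 4 of 42, PSMA4 at 181 FPKM, PSMD6 at 81.7, the inhibitor PSMF1 at 50.1 and PSMB10 at 20.4 FPKM. Splicing factors gave 5 of 99, among them RBM39 at 71.6 FPKM, SNRNP27 at 24.0, RBM14 at 18.1 and RBM27 at 16.99 FPKM. Cytosolic ribosomal proteins gave 3 of 79, RPL8, RPL36 and RPL32, the last at 72.9 FPKM, and mitochondrial ribosomal proteins 3 of 73, MRPL40 at 67.3, MRPS21 at 37.7 and MRPS25 at 22.4 FPKM. Counts were 2 of 50 for translation initiation factors, 2 of 51 for RAB GTPases, 2 of 26 for elongation and pausing factors, 1 of 58 for heat shock proteins and co-chaperones and 1 of 23 for SWI/SNF subunits. No member was found among 50 histone lysine methylation enzymes, 31 mitochondrial carriers, 17 luminal transcription factors and steroid receptors or 14 immediate early genes. At 4.38%, lists of these sizes would hold few members, so a count of 0 sets them apart from nothing.

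Members lay in coding exons more often, and in introns less often, than daTSSs farther out. Over all annotated transcripts, 219 members were in introns, 48.1% (43.5 to 52.8), against 62.3% of the others (difference -14.2 points, -19.1 to -9.18). Coding exons held 115 members, 25.3% (21.3 to 29.5), against 14.2% of the others (difference 11.1 points, 7.05 to 15.5) and 15.1% in the next class. Noncoding exon held 20.4% and 19.9%. The remaining 28 members, 6.15%, lay outside the gene model. They are sites where the gene TSS was called far upstream of the nearest annotated start, at a median offset of -385 nt.

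In the first 200 nt, coding exons held 17.4% of daTSSs and introns 32.9%. To hold distance fixed, the members were set beside all 125 positions of the window. At the members' own gene TSSs, 51.4% of those positions were intronic, 20.4% coding and 22.1% exonic but not coding. At gene TSSs without a daTSS, 52.1% were intronic, 14.2% coding and 29.1% exonic but not coding. The intron share of the members thus included the share of available positions in its interval, whereas their coding share exceeded that of the available positions, with the lower limit of 21.3% close to 20.4%. FPKM did not separate the places, with medians of 14.5 in introns, 14.7 in coding exons, 17.5 in noncoding exons and 15.6 outside the gene model. Between introns and coding exons the log2 difference was -0.02 (-0.53 to 0.36).

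The genes with a member had the end of exon 1, where the 5' splice site of intron 1 lies, in the same stretch of the gene more often than other genes. Exon 1 ended inside the same 125 nt in 121 of 444 members with more than 1 exon, 27.3% (23.2 to 31.6). The share was 16.8% at the other daTSSs (difference 10.4 points, 6.21 to 14.99), 16.3% in the next class and 16.1% at gene TSSs without a daTSS (difference 11.2 points, 7.14 to 15.6). The median end of exon 1 was at 203 nt (180 to 229) for members and 163 nt (159 to 168) for gene TSSs without a daTSS.

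Within 50 nt of that end lay 23.4% of members (19.6 to 27.6), an interval that holds the 20.4% of window positions at the same gene TSSs. The share was 22.5% for daTSSs in the first 200 nt (difference 0.92 points, -5.27 to 6.89), 7.82% in the next class and 6.74% over all other daTSSs, and 13.4% of window positions at gene TSSs without a daTSS. Sorted by side, 64 members (14.4%, 11.3 to 18.0) fell in the last 50 nt of exon 1, where 9.57% of window positions lay. The 50 nt that follow in intron 1 held 40 members (9.01%, 6.51 to 12.1) for 10.6% of positions, and the next 50 nt held 30 (6.76%, 4.60 to 9.51) for 10.1%. RBM27, PSMB10 and POLE4 had their daTSS 2 nt past the end of exon 1, RBL1 6 nt and PSMD6 11 nt past it. PDE4C and CCT4 had theirs 16 and 24 nt before it. These bins were chosen after the positions had been seen.

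Where exon 1 ends and the place of a site within a fixed distance are bound to each other, so the lengths that follow describe the classes and are no further difference. For members in coding exons, exon 1 ended a median of 301 nt downstream (quartiles 252 and 372). The start codon lay a median of 129 nt downstream (107 to 150) for the 101 whose nearest transcript has one. Their antisense RNA begins in sequence that is coding in at least 1 transcript and is directed back toward the translation start. CCND1, RPL8, CCT4, RBM14, PSMF1 (coding in a transcript other than the nearest), GINS3 and ATOH7 are of this kind, with exon 1 ending 233 to 942 nt downstream. For members in introns, the median end was at 106 nt (92 to 124). POLD1, SNRNP27, MCM10, S100A6 and CATSPERE are examples, with exon 1 ending between 26 and 75 nt.

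Initiation at members used the usual dinucleotide but the fuller initiator less often than at other daTSSs. A pyrimidine at -1 and a purine at +1 were found at 64.8% of members (60.3 to 69.2) and 67.3% of the others (difference -2.50 points, -7.34 to 2.14), beside 21.9% of all antisense positions in the window at the same gene TSSs. The initiator-like CANW was found at 89 members, 19.6% (16.0 to 23.5), beside 2.33% of window positions. It was found at 26.6% of the others (difference -7.03 points, -10.8 to -2.78) and at 26.0% of the next class (difference -6.46 points, -11.1 to -1.55). In the first 200 nt it was 22.1%, and the difference of -2.52 points (-8.46 to 3.22) included 0. The start base was A at 51.2% and G at 31.2% of members, against 56.3% and 25.2% of the others. A TATAW element 24 to 35 nt upstream was rare, at 0.659% of members and 1.28% of the others.

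CANW requires an A or T at +3, so the share was also taken by GC content. With sites divided into 3 classes at 57.5% and 67% GC, measured over 100 nt on each side of the daTSS, the most GC-rich class held 50.3% of members and 30.2% of the others. CANW was found at 16 of 76 members in the least GC-rich class (21.1%), 34 of 150 in the middle class (22.7%) and 39 of 229 in the most GC-rich class (17.03%). The other daTSSs gave 31.3%, 26.99% and 20.2%. The member share was the lower in each class, but the intervals, such as 12.5 to 31.9% in the least GC-rich class, were wide.

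GC content around the members was close to that of the same distance from other gene TSSs over 200 nt, but higher just upstream of the daTSS. Over 200 nt, read in the antisense direction, it averaged 63.7% (SD 11.5 over 455 sites) upstream and 66.9% (SD 8.11) downstream of the daTSS, a difference of 3.24 points (SD 9.44). At the same distance, 254 nt, from the 7435 gene TSSs without a daTSS, the values were 62.3% and 66.3%, a difference of 3.997 points (SD 9.01). In the 20-nt bins centred 80, 60 and 40 nt upstream, members averaged 66.1%, 66.2% and 67.6%, and the same distance without a daTSS 62.8%, 63.2% and 63.8%. A rise just upstream was not particular to members. Between the bins centred 100 and 40 nt upstream, GC content went from 63.7% to 67.6% at members and from 57.2% to 61.6% at the other daTSSs. Without a daTSS it went from 62.3% to 63.8%. The difference between the sides of the members depended on the window, at 0.20 points over 100 nt and 8.02 points over 500 nt. The other daTSSs pooled lay in less GC-rich DNA, with 57.7% upstream and 62.5% downstream over 200 nt, whereas those in the first 200 nt had 65.4% and 66.96%. The next class had a steeper change of 7.08 points. GC content was higher on the downstream side at 62.9% of members and 74.4% of sites in the next class (difference -11.5 points, -16.9 to -6.13).

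**Figure D2:**
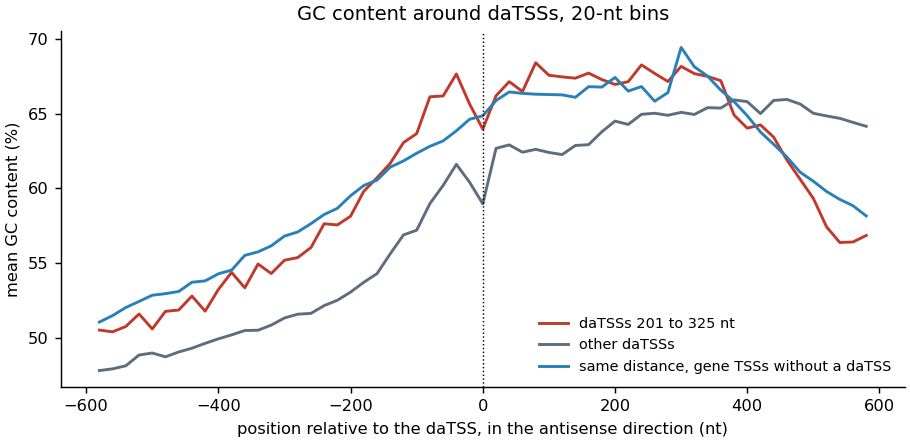
Mean GC content (%) in 20-nt bins relative to the daTSS, read in the antisense direction, with the gene TSS to the right, for the members, for the other daTSSs, and for the position 254 nt downstream of gene TSSs without a daTSS. Between 80 and 40 nt upstream the members (66.1% to 67.6%) lie above the same distance without a daTSS (62.8% to 63.8%), and both lie above the other daTSSs there (58.98% to 61.6%).

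Most members lay in CpG islands, the stretches of unmethylated CpG-rich DNA over most promoters, as did daTSSs closer to the gene TSS. A gene TSS in an island was equally common for members (84.4%) and others (84.6%). The daTSS itself was in an island for 73.8% of members (69.6 to 77.8), 49.6% of the others and 62.4% in the next class, and for 77.9% of daTSSs in the first 200 nt (difference -4.07 points, -10.04 to 2.13). Of the 384 members whose gene TSS was in an island, 81.8% shared that island, against 92.9% in the first 200 nt, and its downstream edge lay a median of 180.5 nt past the daTSS (quartiles 49 and 407), compared with 8 nt (-7 to 25) for the others, 72 nt (58 to 90) in the next class and 338 nt (303 to 390) in the first 200 nt. The islands extended a median of 444.5 nt (413 to 466) downstream of the members' gene TSSs, 479.5 nt (426 to 520) for daTSSs in the first 200 nt, 504.5 nt (472 to 519) in the next class and 566 nt (544 to 583) over all other daTSSs. The edge was within 250 nt of 60.2% of members and 68.0% of the next class (difference -7.84 points, -13.9 to -1.82), but of 52.3% of all other daTSSs (difference 7.89 points, 2.48 to 13.1) and 37.4% of those in the first 200 nt.

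Short motifs were counted on either strand in the 100 nt upstream of the daTSS, where factors that act on the antisense start would bind, and in the 100 nt downstream. The GC box GGGCGG, the core of Sp/KLF factor sites, differed most. It was present upstream of 37.4% of members (32.9 to 42.0), 24.4% of the others, 26.6% of the next class, and 24.8% of equal windows at the same distance from gene TSSs without a daTSS. The difference from the last was 12.6 points (8.17 to 17.2). Downstream, the side facing the gene TSS, the box was at 24.2% of members, below the 29.9% of windows without a daTSS (difference -5.72 points, -9.58 to -1.46) and above the 18.6% of the other daTSSs (difference 5.62 points, 1.597 to 10.02). The next class had 22.5% (difference 1.72 points, -3.12 to 6.73). GC content of the upstream 100 nt was also higher at members, 66.3% against 63.6%. Divided at 59% and 70% GC, the box was found upstream of 10.0%, 31.5% and 59.0% of members from the least to the most GC-rich class, and in 5.93%, 21.1% and 48.0% of windows without a daTSS. The other daTSSs gave 6.12%, 26.9% and 59.4%, so within a GC class the members were close to the other daTSSs.

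**Figure D3:**
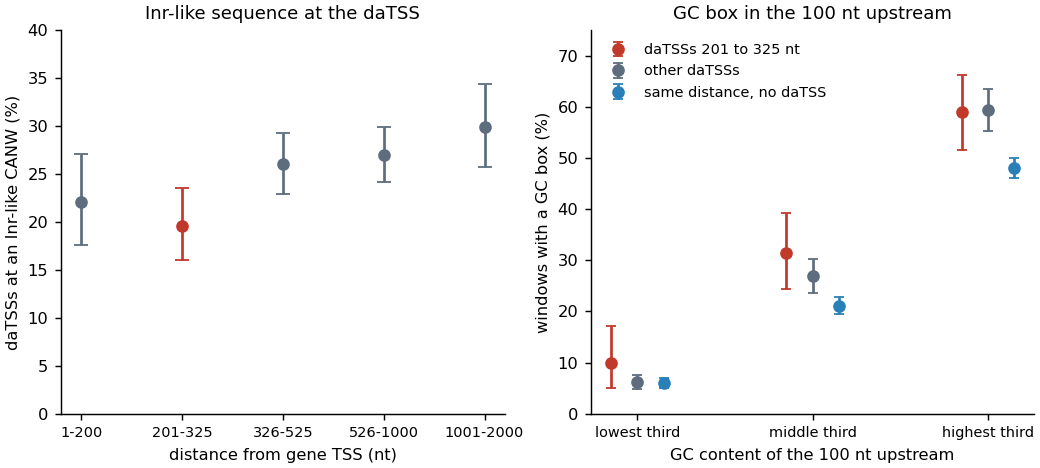
Left, share (%) of daTSSs at an initiator-like CANW by distance from the gene TSS (nt); right, share (%) of 100-nt windows upstream with a GC box by GC class, for the members, other daTSSs, and the same distance at gene TSSs without a daTSS. Points are shares and bars exact 95% intervals; members are lowest on the left at 19.6%, and reach 59.0% on the right in the most GC-rich class, where windows without a daTSS reach 48.0%.

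The other 12 motifs were less frequent and differed less. Of 26 differences from the same distance without a daTSS, 4 had an interval that excluded 0, with no correction for their number. They were the GC box on both sides, the ETS factor core CCGGAA upstream (7.03% of members and 4.94% without a daTSS) and GCGCATG, part of the NRF1 site, upstream (1.76% and 0.767%). The NFY box CCAAT was upstream of 9.23% of members and 10.4% of the other daTSSs, and the YY1 core AAGATGG downstream of 2.42% and 1.12%.

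The AP-1 site TGANTCA was upstream of 4 members, 0.879%, against 2.36% of the others (difference -1.48 points, -2.34 to -0.02) and 1.09% at the same distance without a daTSS. Sequences bound by FOXA1 and by GATA3, regulators that are highly expressed in these luminal cells, were rare in all groups. The forkhead core TGTTTAC was upstream of 0.879% of members, 1.04% of the others and 0.713% at the same distance without a daTSS. For the zinc finger site AGATAA the shares were 1.98%, 2.64% and 1.83%. For both sequences, the interval of the difference from the same distance included 0. The E-box CACGTG was upstream of 2.42% of members and 2.96% of the others. The sequence GGTGAG, a form of the 5' splice site, was in the upstream window of 12.7% of members and 9.84% of the others (difference 2.91 points, -0.11 to 6.47). At the same distance without a daTSS it was in 10.4%, and the interval of that difference (-0.52 to 5.77 points) also included 0. Either strand was counted, so a match need not be a splice site of the gene. A match is a run of letters and not a bound site, and neighbouring motifs may share letters.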

How the data were processed

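The authors filtered Start-seq reads on quality, trimmed adapters with cutadapt 1.2.1, aligned them to hg19 with Bowtie 0.12.8 and called the position with the most 5' ends wherever it reached 5 reads, up to 1000 nt upstream for uaTSSs and 2000 nt downstream for daTSSs. Thus a gene TSS has at most 1 daTSS, and weaker sites are unseen. They removed daTSSs near an annotated start on the same strand or with sense reads close upstream. The deposited score of every call is 0, so the depth behind a single call is unknown here. The deposited FPKM values come from TopHat2 2.0.4, Picard 1.118 and Cufflinks 2.2.1 on merged replicates, with 0 columns of single samples.

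Members are the daTSSs 201 to 325 nt downstream of their gene TSS, and the next class holds those at 326 to 525 nt. Each call was joined to its gene TSS by identifier, to the nearest GENCODE transcript start within 1000 nt on the same strand (10366 of 10391 gene TSSs), and by symbol to FPKM (10216). Symbols of 28 rows had been turned into dates. Sequence and gene models are GRCh37 (hg19). The authors guided their calls with an earlier RefSeq annotation. FPKM was compared as log2(FPKM + 0.1), with an interval combined from those of both medians. CpG islands were computed from sequence (over 200 bp, at least 50% GC, observed to expected CpG over 0.6, no repeat masking). With 1 library of calls and 1 merged column no test between groups was possible. Python 3.11.15, numpy 2.4.6, scipy 1.17.1, pandas 2.3.3, numba 0.67.0 and matplotlib 3.10.9 were used, and the interval and island functions were tested on simulated data.

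The members, gene lists and comparisons were chosen with earlier results of these data known. Named genes are the 8 members of highest FPKM, the 5 of lowest FPKM above 0, the 3 of highest FPKM in the fullest 10-nt bin, up to 4 of each list with at least 3 members, and those with the shortest and longest uaTSS distance. E2F6 (the fifth in its list), H3C11, the genes at the limits of the window and the genes given for their exon 1 were named with their values seen. Further motifs searched were CREB sites (TGACGTCA and its core TGACGT) and the splice site GGTAAG. Motifs, GC classes and the measures at the end of exon 1 were added after the data were seen. The second Start-seq library and the chromatin assays of the series (MNase-seq, FAIRE-seq) are not analysed here.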

Additional observations from a re-analysis of the deposited data

How the results depend on the processing

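Of 30 alternatives over 8 results, 24 moved the value by less than its interval. Only the difference in median log2 FPKM and the GC difference have a sign, and both kept it. The other results are shares or medians of the members alone, which have no direction to reverse. Changes of window and of gene TSSs were made for such member values only, not for differences from the other daTSSs. The 24 include windows narrower and wider by 10 nt at each end, 1 gene TSS per gene, gene TSSs without another within 5000 nt, an FPKM of at least 1 and a pseudocount of 1. The other 6 changed the definition of what was counted. The intron share became 56.3% with the nearest transcript alone, where 61.0% of window positions at the same gene TSSs were intronic. The share at an initiator became 36.0% for CA alone and 64.8% for a pyrimidine-purine pair. GC content downstream minus upstream was 0.20 points over 100 nt and 8.02 points over 500 nt on each side. The island share was 64.8% with stricter islands.

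No paired analysis was possible because the calls come from 1 library and the FPKM column holds merged replicates. For the same reason no replicate was left out. The depth of single calls is unknown here, so a gene TSS without a daTSS or uaTSS is one where no site was called at the authors' threshold. Each daTSS is the strongest site of its search space, so weaker sites in the window were not analysed here. For place in the gene and GC content, only the comparisons with the same positions elsewhere hold distance fixed, and CpG islands were not compared at a fixed distance.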
